A study of Mus musculus with 22 samples.

Results

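The genes described here code for the enzymes, transporters and regulators that take up glucose, break it down to pyruvate and lactate, store it as glycogen and make it anew. They were chosen by gene symbol, with earlier results of these data known. They number 32, of which 29 had an array probe set assigned to that symbol alone, out of 18194 genes measured in this way. Eno1, Gpi1 and Pfkfb1 were not analysed here, since the probe annotation used gave them no such probe set. Liver RNA came from 22 male C57BL6 mice, 8 weeks old, injected intraperitoneally each day with diclofenac sodium at 30 mg/kg or with a matching volume of saline. The drug inhibits cyclooxygenases to relieve pain and inflammation and is known to injure the liver. Livers were taken at day 1, day 3 or day 14, and each array held the RNA of 1 liver, with 3 saline and 3 diclofenac livers at day 1, as many at day 3, and 5 of each at day 14. All animals shared strain, sex and age at the start, and no genetic change was made in any group. The sample labels state groups of 5, so the arrays of days 1 and 3 hold fewer animals than stated.

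Glucose enters hepatocytes through the transporter Slc2a2 and is phosphorylated by a hexokinase, and in the liver the regulatory protein Gckr holds the main enzyme of this step in check. Glycogen is built by Ugp2, Gys2 and Gbe1 and broken down by Pygl, while the subunits Ppp1r3b, Ppp1r3c and Ppp1r3g bring protein phosphatase 1 to glycogen, where it favours synthesis. Several steps have a form typical of liver and others found in muscle, brain or most tissues, such as Pfkl against Pfkm and Pfkp. The lactate dehydrogenases and the pyruvate dehydrogenase kinases decide together whether pyruvate becomes lactate or enters mitochondria, and Pcx and Fbp1 lead in the opposite direction, towards glucose.

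With diclofenac treatment 1 of the 29 genes fell past the test, Ppp1r3g, in the mean of the effects of the 3 days. Its mean log2 difference was -1.89, and -0.89 with the median signal of the arrays added before log2, since its signal was low and lay above the array median in 0 of 11 diclofenac livers. None of the 29 that belong to glycolysis, gluconeogenesis or sugar entry passed at any day or in the mean. Outside the 29, G6pc, which releases glucose from liver, and Txnip fell past the test in the mean. Both calls were lost with a term for replicate number, and also when any of several single livers was left out. A single diclofenac liver of day 14 held Slc2a2 and several glycogen genes far below their level in all other livers of that day, and for Slc2a2 and Ppp1r3c the difference between groups was 0.00 without it.

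The array values are MAS5 signals, a linear brightness scaled to the same trimmed mean on every array, and differences are given on the log2 scale as diclofenac minus saline of the same day, with standard errors from limma. A gene was called when its p, adjusted by Benjamini-Hochberg over all genes tested, was under 0.05. Signals of different genes come from different probes and are not compared. The livers held 10 of 10 hepatocyte markers above the array median in every group, and in bulk tissue fewer cells of a type and less RNA per cell cannot be told apart. Of the 29 genes, 26 lay above the array median on all 22 arrays, and the exceptions were Hk3 (19 arrays), Hk2 (20) and Ppp1r3g (7). Within groups, the correlation of arrays over genes ranged from 0.876 to 0.926.

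A pair of livers stood apart. Replicate 3 of the diclofenac group of day 14 was the lowest or the highest of the 10 livers of its day for 18 of the 29 genes (62.1%), against 57.5% of all genes tested. Replicate 2 of the diclofenac group of day 1 was the lowest or highest of 6 for 20 of 29 (69.0%), against 56.5% of all genes. Both also had a high summed signal of neutrophil markers. The summed signal of the 7 measured neutrophil markers was 21456 in the day 1 liver and 23859 in the day 14 liver, compared with 978 to 1154 and 577 to 2222 in the other diclofenac livers of those days and 712 to 934 and 279.9 to 449.5 in saline livers. S100a8 alone gave 11744 of the sum in the day 1 liver and 13001 in the day 14 liver. The number of these markers above the median on every array of a group was 5 with saline and 3 with diclofenac at day 1. At day 14 it was 0 with saline and 2 with diclofenac. Results that rest on these livers are given with and without them, and the part of the neutrophil markers in them was not tested.

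Promoters are shown for Ppp1r3g, the gene past the test, and for Ldha, which like Pdk2 was separated between groups at days 1 and 3. Each run is the 250 bases before a RefSeq transcription start on GRCm38.p6, read 5′ to 3′ on the gene's strand, Ppp1r3g at chr13:35967656-35967905 and Ldha at chr7:46845554-46845803, both on the plus strand. Capitals mark CACGTG, the E-box that reads the same on both strands and is bound by helix-loop-helix factors, among them the sugar-responsive Mlxipl with its partner Mlx.
Ppp1r3g: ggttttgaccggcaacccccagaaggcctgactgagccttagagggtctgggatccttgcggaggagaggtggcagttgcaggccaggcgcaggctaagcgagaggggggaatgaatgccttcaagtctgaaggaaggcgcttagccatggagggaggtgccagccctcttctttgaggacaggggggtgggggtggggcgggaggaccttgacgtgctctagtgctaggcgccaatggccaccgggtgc
Ldha: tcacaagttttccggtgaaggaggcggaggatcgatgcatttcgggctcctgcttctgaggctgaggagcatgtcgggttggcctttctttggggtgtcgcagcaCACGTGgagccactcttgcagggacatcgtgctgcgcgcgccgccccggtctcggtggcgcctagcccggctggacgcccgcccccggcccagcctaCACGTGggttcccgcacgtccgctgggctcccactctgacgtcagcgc
The letters CACGTG stood in this Ldha promoter at 139 and 42 bases before the start and were not in the window of Ppp1r3g, nor in that of another RefSeq start of Ldha (chr7:46846832-46847081). The Ppp1r3g window lies inside the extent of the gene (35958824 to 35970388), and both Ldha windows lie inside that of Ldha (46842274 to 46855627). Bases before those extents were not searched. Of the 30 listed genes with a promoter entry, 7 held it in at least 1 promoter (23.3%), namely Khk, Ldha, Pcx, Pdk2, Pfkfb3, Pfkm and Ppp1r3c. It was found in 6.02% of all 32851 promoters and in at least 1 promoter of 6.86% of 27025 genes. A gene with several starts was searched in several windows, and these shares do not allow for that. A match is a description of letters and no measure of binding.

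Ppp1r3g encodes a glycogen-targeting regulatory subunit of protein phosphatase 1 and lies on chromosome 13 of GRCm38.p6, from 35958824 to 35970388. At day 1 its signal was 49.3, 99.0 and 62.7 in the saline livers and 43.8, 5.50 and 42.2 in the diclofenac livers. At day 3 it was 302, 426 and 209 with saline and 46.8, 62.3 and 34.7 with diclofenac. At day 14 it was 63.8, 77.4, 156, 96.5 and 261 with saline and 35.0, 69.9, 85.1, 20.8 and 41.7 with diclofenac. The groups did not overlap at days 1 and 3, and at day 14 the upper 2 diclofenac livers lay within the saline range. Saline livers of day 3 were the highest, and the diclofenac livers of day 3 were close to those of the other days.

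On the log2 scale the difference of Ppp1r3g was -1.64 (SE 0.71, adjusted p = 0.36) at day 1, -2.68 (SE 0.71, adjusted p = 0.175) at day 3 and -1.35 (SE 0.49, adjusted p = 0.362) at day 14, all from limma. The exact permutation test of this gene alone, two-sided, gave p = 0.1, 0.1 and 0.0397 for the 3 days, and 0.1 is the smallest p that 3 livers against 3 allow. The mean over the days was -1.89 (SE 0.37, 95% interval -2.66 to -1.12, adjusted p = 0.0103, limma). Its effect did not differ past the test between days 3 and 1 (-1.05, 95% interval -3.21 to 1.12) or between day 14 and the earlier days (0.81, -0.69 to 2.32). The day 1 value rested on replicate 2 of the diclofenac group and was -0.65 without it. Without that array in the shared model, the day 3 difference of -2.68 passed the test (adjusted p = 0.00821, limma). Without both livers that stood apart, the mean effect was -1.64 (adjusted p = 0.00274, limma).

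The signal of Ppp1r3g was low. It lay above the array median in 7 of 11 saline livers and 0 of 11 diclofenac livers, so the gene entered the test through its saline livers alone. With no filter on low signals the mean effect had an adjusted p of 0.0127 (limma). With the median signal of the arrays added before log2, which holds back low values, the mean difference was -0.89 (adjusted p = 0.00343, limma). The 5 tested neutrophil markers moved in the opposite direction in the mean effect, 2 of them past the test. These were S100a8 and S100a9, higher by 3.57 and 3.27 (adjusted p = 0.00819 and 0.00808, limma). The part of neutrophil markers in the Ppp1r3g result was not tested. Nor was that of RNA integrity, measured by the 3′ to 5′ ratio of control probe sets. At day 14 this ratio was higher with diclofenac (log2 0.74 against 0.62, exact permutation p = 0.0238).

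**Figure D1:**
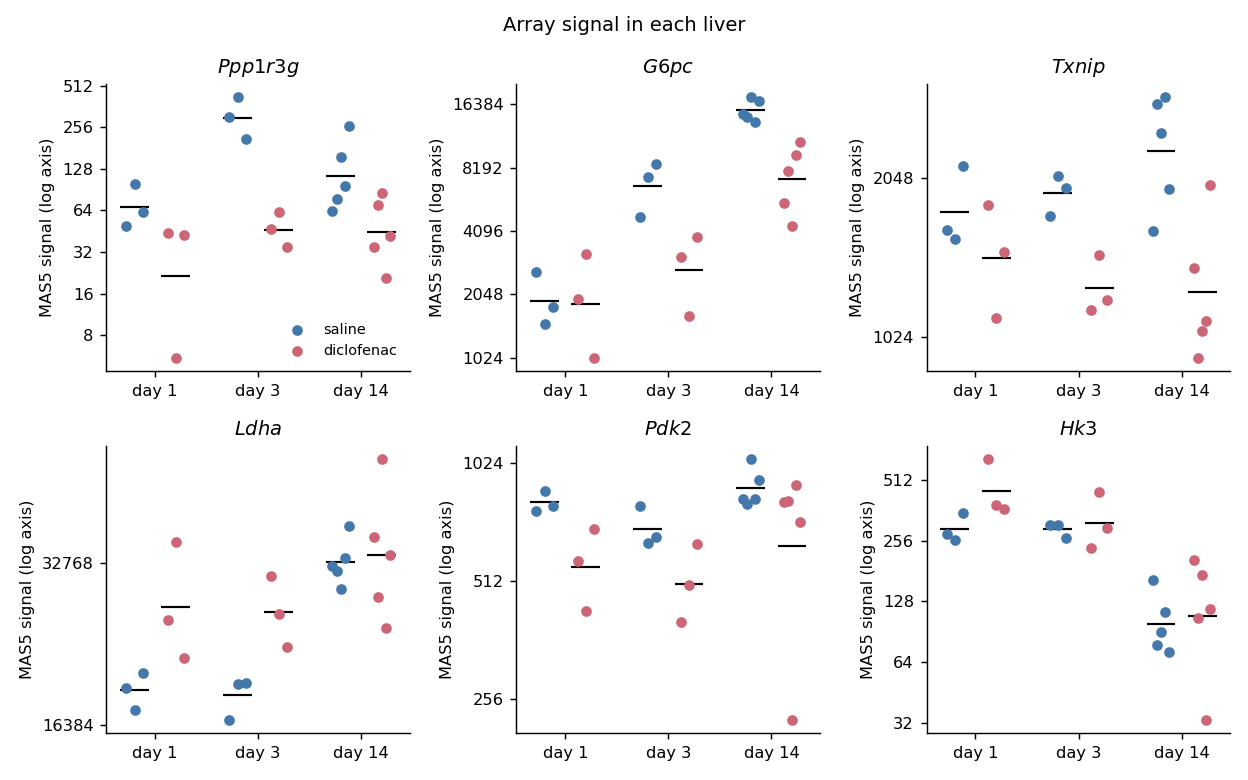
MAS5 signal on a log axis (y) by day (x) in each liver, for Ppp1r3g, G6pc, Txnip, Ldha, Pdk2 and Hk3; points are livers (3 per group at days 1 and 3, 5 at day 14), blue for saline and red for diclofenac, and bars are means of the log2 signals. Ppp1r3g in saline livers was highest at day 3 (209 to 426), whereas diclofenac livers stayed between 5.50 and 85.1 over the 3 days.

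At day 1 no member was called (0 of 29, and 0% of all 12884 genes tested). At an unadjusted p under 0.05 there were 9 members, with 13% of all genes, and the methods' t-test with more than 1.5-fold named 0 members and 1.46% of genes. The groups did not overlap for 6 members, 3 higher (8.23% of all genes) and 3 lower (8.1%) with diclofenac, compared with 16.3% of all genes in either direction. For 4 of them, Ppp1r3g, Hk3, Pdk2 and Ldha, the difference was also at least 0.5 in size (6.71% of genes). At day 3 the counts were 0 called (0.202% of genes), 8 at an unadjusted p (10.8%) and 11 without overlap (20%), 5 higher (10.8%) and 6 lower (9.21%), and the methods' t-test named 1, Ppp1r3g (2.49%). Of the 11, 3 differed by at least 0.5, namely Ppp1r3g, Eno3 and Ldha (6.69% of genes). At day 14 they were 0 called (0% of 11884 genes), 1 at an unadjusted p (10.8%) and 0 without overlap (3.78%, or 2.04% with a difference of at least 0.5), and the methods' t-test again named Ppp1r3g alone (2.39%). In the mean effect 1 member fell and 0 rose, with 1.68% of 13340 genes called in either direction, 1.24% higher and 0.442% lower. After Benjamini-Hochberg the methods' t-test called 0 genes of any kind at each day. The median log2 difference over the 29 genes was -0.10, 0.00 and -0.11 at days 1, 3 and 14 and -0.08 in the mean, compared with 0.00, 0.01, -0.01 and 0.00 over all genes tested.

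**Figure D2:**
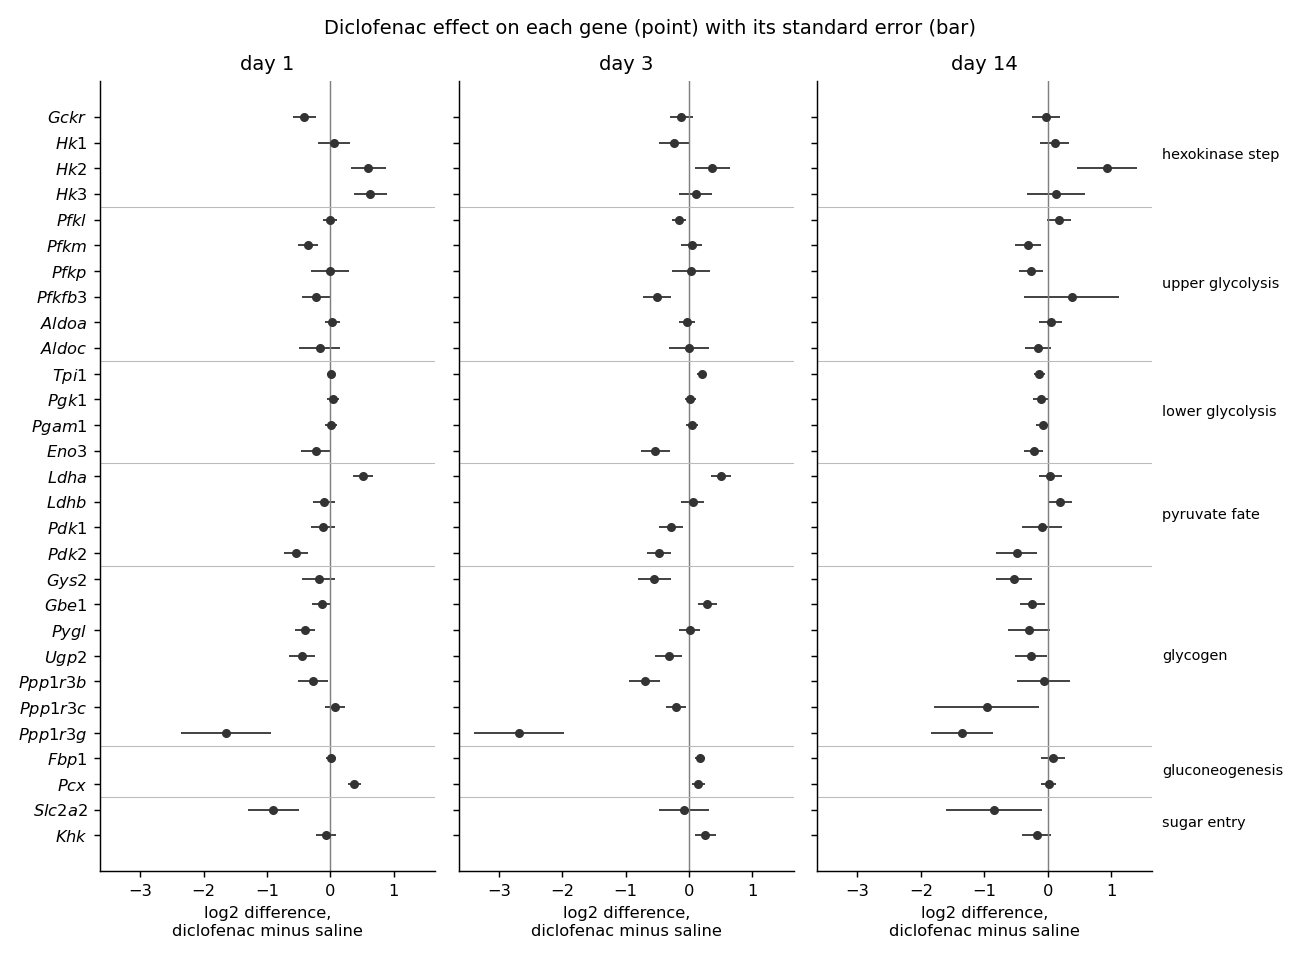
Log2 difference, diclofenac minus saline (x), of each of the 29 genes (y, grouped by role) at days 1, 3 and 14; points are limma estimates and bars their standard errors. Ppp1r3g was the lowest at each day (-1.64, -2.68 and -1.35), and of the other 28 genes 23, 23 and 24 lay within 0.5 of 0 at days 1, 3 and 14, with an estimate no larger than its standard error for 16, 12 and 16.

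At the hexokinase step, 0 of 4 genes passed the test at any day. Hk3, a hexokinase known mainly from white blood cells, was 277, 257 and 350.2 in saline and 653, 384 and 369 in diclofenac livers of day 1, without overlap. The difference was 0.63 (SE 0.26, adjusted p = 0.346, limma), and it was 0.11 at day 3 and 0.13 at day 14, where the groups overlapped. Leukocyte markers ran alongside at day 1, with a summed signal of 3160 to 4727 in saline and 4670 to 7419 in diclofenac livers, highest in replicate 1 of the diclofenac group, which also had the highest Hk3. The median log2 difference of the 6 leukocyte markers was 0.52, 0.25 and 0.68 at days 1, 3 and 14. It was thus largest at day 14, where that of Hk3 was 0.13. The part of these markers in the Hk3 value was not tested. Hk2, the insulin-responsive hexokinase of muscle and fat, had differences of 0.60, 0.37 and 0.94 and a mean effect of 0.64 (SE 0.26, adjusted p = 0.203, limma). At day 14 its signal was 60.3 to 119.6 in saline livers and 172, 166, 592, 67.4 and 154 with diclofenac, and the difference was 0.51 without replicate 3, which held the highest value.

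Hk1, the hexokinase of most tissues, was 275, 353 and 324 with saline and 339.9, 349 and 299 with diclofenac at day 1. At day 3 it was 338, 196 and 375 with saline and 179, 303 and 282 with diclofenac. At day 14 it was 174, 189, 194, 213 and 142 with saline and 146, 216, 335, 155 and 170.1 with diclofenac. Groups overlapped at each day and the differences, 0.06, -0.23 and 0.11, had no shared sign. The mean was -0.02 (95% interval -0.34 to 0.30). Gckr had differences of -0.41 (SE 0.18), -0.12 and -0.03 (adjusted p = 0.377, 0.862 and 0.976, limma).

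In upper glycolysis, where fructose 6-phosphate is phosphorylated and split, 0 of 6 genes passed and the median difference was -0.09, -0.01 and -0.05 at days 1, 3 and 14. The liver phosphofructokinase Pfkl stayed within -0.15 to 0.18 over the days. The muscle form Pfkm was 573, 563 and 720.0 with saline and 555, 425 and 481 with diclofenac at day 1, without overlap (-0.35, SE 0.16, adjusted p = 0.392, limma), and its differences at days 3 and 14 were 0.04 and -0.31. The platelet form Pfkp had -0.01, 0.03 and -0.26, the aldolases Aldoa and Aldoc 0.03, -0.03 and 0.05 and -0.17, 0.00 and -0.15. Pfkfb3, which makes the activator fructose 2,6-bisphosphate, was -0.51 at day 3 (SE 0.22, adjusted p = 0.425, limma). At day 14 its difference of 0.38 turned to -0.36 without replicate 3, whose signal was 1798 against 82.9 to 384 in the other 4 diclofenac livers.

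In lower glycolysis, which yields ATP and pyruvate, 0 of 4 genes passed at any day. Tpi1 varied least of all 29 genes, with a within-group SD of 0.04 on the log2 scale at days 1 and 3 and 0.09 at day 14. Its signal at day 3 was 11484, 12036 and 11808 with saline and 14091, 13547 and 13048 with diclofenac. The groups were apart, but the size was small (0.20, SE 0.07, adjusted p = 0.287, limma), and the differences at days 1 and 14 were 0.01 and -0.13. Pgk1 and Pgam1 lay between -0.11 and 0.05 at each day. The enolase of muscle, Eno3, was 240.3, 216 and 188 with saline and 183, 109 and 162 with diclofenac at day 3. This was without overlap, at -0.53 (SE 0.23, adjusted p = 0.42, limma), and its mean effect was -0.33 (SE 0.11, adjusted p = 0.139, limma).

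At the fate of pyruvate, 0 of 4 genes passed. Ldha, the subunit of lactate dehydrogenase that predominates in liver and muscle, was 19171, 17458 and 20496 with saline and 25667, 35750 and 21812 with diclofenac at day 1. At day 3 it was 16757, 19557 and 19640 with saline and 30959, 26336 and 22863 with diclofenac. Every diclofenac liver of these days lay above every saline liver of its day. At day 14 the signals were 32343, 31670, 29251, 33523 and 38375 with saline and 36631, 28280, 51125, 24797 and 33931 with diclofenac, and the groups overlapped. The log2 differences were 0.51 (SE 0.16, adjusted p = 0.296), 0.51 (SE 0.16, adjusted p = 0.255) and 0.04 (SE 0.18, adjusted p = 0.944), all from limma. The day 14 effect was smaller than the earlier mean by 0.47 on the log2 scale, written as -0.47 (95% interval -0.92 to -0.02, adjusted p = 0.77, limma), which did not pass. Over the 3 days the mean was 0.36 (SE 0.11, adjusted p = 0.105, limma). The day 1 difference was 0.32 without replicate 2, and without that array in the shared model the day 3 difference passed with an adjusted p of 0.0459 (limma). Ldhb, the heart form, had differences of -0.10, 0.06 and 0.20. Its other probe sets, of lower signal, went the other way at day 14, with -0.63, -0.81 and -0.16.

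Pdk2, a widespread kinase, inhibits pyruvate dehydrogenase and so holds pyruvate back from mitochondrial oxidation. Its signals at day 1 were 774, 871 and 797 with saline and 578, 429.7 and 697 with diclofenac, without overlap. At day 3 they were 795, 642 and 662 with saline and 402, 500.5 and 635 with diclofenac, again without overlap. At day 14 they were 827, 803, 1050, 829 and 927 with saline and 814, 819.7, 227, 901 and 725 with diclofenac, so that 1 liver held most of the difference. The log2 differences were -0.54 (SE 0.19), -0.47 (SE 0.19) and -0.49 (SE 0.33), with adjusted p = 0.322, 0.393 and 0.599 (limma). The mean of -0.50 (adjusted p = 0.165, limma) was -0.38 without replicate 3 of day 14, a smaller difference with less spread that passed the test (adjusted p = 0.0233, limma). Without both livers that stood apart it was -0.31 (adjusted p = 0.0507, limma). Pdk1 had differences of -0.11, -0.29 and -0.09.

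In the glycogen group 1 of 7 genes, Ppp1r3g, fell in the mean effect, and 0 of 7 passed at a single day. The log2 differences were negative for 6 of 7 genes at day 1, 5 of 7 at day 3, and 7 of 7 at day 14 and in the mean, with medians of -0.27, -0.32, -0.29 and -0.34. Without replicate 3 of the diclofenac group, 3 of 7 were negative at day 14 with a median of 0.00, and without replicate 2, 5 of 7 at day 1 with a median of -0.12. The count of 7 of 7 in the mean includes both of these livers and was not taken without them. The liver glycogen synthase Gys2 had -0.18, -0.55 and -0.53 and a mean of -0.42 (SE 0.18, adjusted p = 0.223, limma), which was -0.23 without both livers that stood apart. At days 1 and 14 Gys2 was 0.07 and -0.20 without the liver of that day. Ugp2, which makes UDP-glucose, had -0.45, -0.32 and -0.26, and -0.12 and 0.01 at days 1 and 14 without those livers. The branching enzyme Gbe1 had -0.14, 0.29 and -0.24, and 0.00 and -0.09 without them. Pygl, the liver glycogen phosphorylase, had -0.40 at day 1 (adjusted p = 0.344, limma), of which -0.17 was left without replicate 2, and 0.01 and -0.29 at days 3 and 14, the latter 0.09 without replicate 3. The liver targeting subunit Ppp1r3b was 3103, 4618 and 4092 with saline and 2286, 3152 and 1905 with diclofenac at day 3, which overlapped (-0.70, SE 0.24, adjusted p = 0.292, limma), and its day 14 difference of -0.06 was 0.40 without replicate 3. Ppp1r3c had 0.07, -0.20 and -0.96, the last of which was 0.00 without replicate 3.

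Slc2a2, the glucose transporter of hepatocytes, was 14824, 19816 and 18091 with saline and 12226, 3683 and 18162 with diclofenac at day 1. Its difference was -0.90 (SE 0.40, adjusted p = 0.37, limma) and -0.23 without replicate 2. At day 3 it was -0.08. At day 14 the difference was -0.85 (SE 0.76, adjusted p = 0.695, limma) and 0.00 without replicate 3. Khk, which phosphorylates fructose, had differences of -0.07, 0.26 and -0.17. In gluconeogenesis Pcx, which turns pyruvate into oxaloacetate, was 7930, 8642 and 9024 with saline and 9728, 12141 and 11487 with diclofenac at day 1. All 3 treated livers lay above the controls (0.38, SE 0.10), and its adjusted p of 0.251 was the smallest of the 29 genes at that day (limma). The differences at days 3 and 14 were 0.15 and 0.02. Fbp1, the fructose bisphosphatase of liver, had 0.01, 0.18 and 0.08.

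Genes with a form typical of liver (Gckr, Pfkl, Gys2, Pygl, Ppp1r3b, Ppp1r3g, Fbp1, Pcx, Slc2a2 and Khk, 10 of 11 listed) were set beside the 19 of 21 listed that are found in other tissues as well. Their median log2 differences were -0.23, -0.10 and -0.11 at days 1, 3 and 14 and -0.20 in the mean. The other forms had -0.01, 0.02, -0.11 and -0.03. At day 1, 8 of 10 liver forms were negative, and 10 of 19 other forms. The difference between the classes was not tested, and without replicate 2 the day 1 median of the liver forms was -0.07, with 7 of 10 negative, and that of the other forms -0.01, with 11 of 19. At day 14 the liver forms were negative for 7 of 10, and for 3 of 10 with a median of 0.04 without replicate 3.

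The liver of day 14 that stood apart showed the strongest departures among these genes. Slc2a2 was 387 in it and 6337 to 8637 in the other 4 diclofenac livers, which lay within the saline range of 4072 to 11141. Relative to the saline median it was 23.5-fold lower. Ppp1r3c was 258 against 5357 to 8622 in the other 4, or 32.2-fold lower than the saline median. Pygl (3485), Gys2 (1346), Ppp1r3b (1105) and Pdk2 (227) were 3.47-fold, 3.50-fold, 3.58-fold and 3.65-fold lower. Pfkfb3 and Hk2 ran the other way, at 8.79-fold and 6.28-fold above the saline median. Tpi1, Pgk1, Pgam1 and Pfkl were within 0.20 of it on the log2 scale. Of the 29 genes, 8 were lower by at least 1 on the log2 scale (27.6%) and 2 higher (6.90%), compared with 11.0% and 9.77% of all genes.

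**Figure D3:**
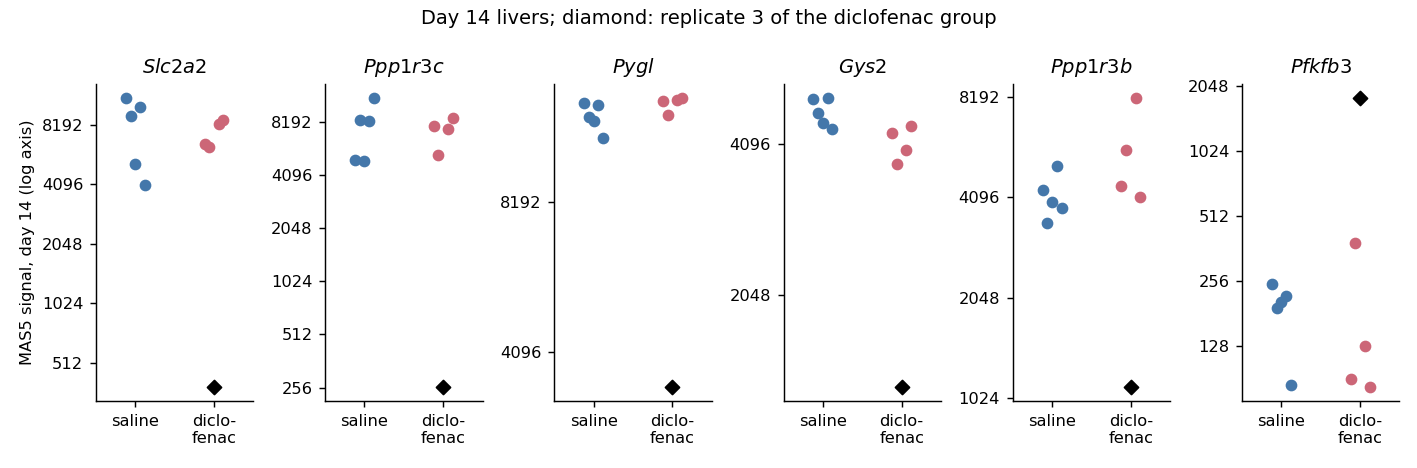
MAS5 signal at day 14 on a log axis (y, own scale per gene) for Slc2a2, Ppp1r3c, Pygl, Gys2, Ppp1r3b and Pfkfb3 in the 5 saline (blue) and 5 diclofenac (red) livers; the black diamond is replicate 3 of the diclofenac group. The diamond lay below all other livers for 5 genes (387, 258, 3485, 1346 and 1105) and above them for Pfkfb3 (1798).

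In the liver of day 1 that stood apart, Slc2a2 was 4.91-fold and Ugp2 2.14-fold below the saline median of its day, and Ldha 1.86-fold above it. Of the 29 genes, 24 departed in the same direction in both livers (82.8%, against 68.5% of all genes tested at both times), 15 of them downwards (51.7%, against 35.5%). Across these genes the departures correlated with r = 0.44, compared with 0.52 across the 11692 genes tested at both times. The livers share no control, and genes are not independent replicates. Ppp1r3g lay below the saline median in both, at -3.51 on the log2 scale in the day 1 liver and -0.18 in the day 14 liver. Among diclofenac livers its rank differed, since the day 14 liver held the highest of the 5 signals (85.1) and the day 1 liver the lowest of its group (5.50).

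**Figure D4:**
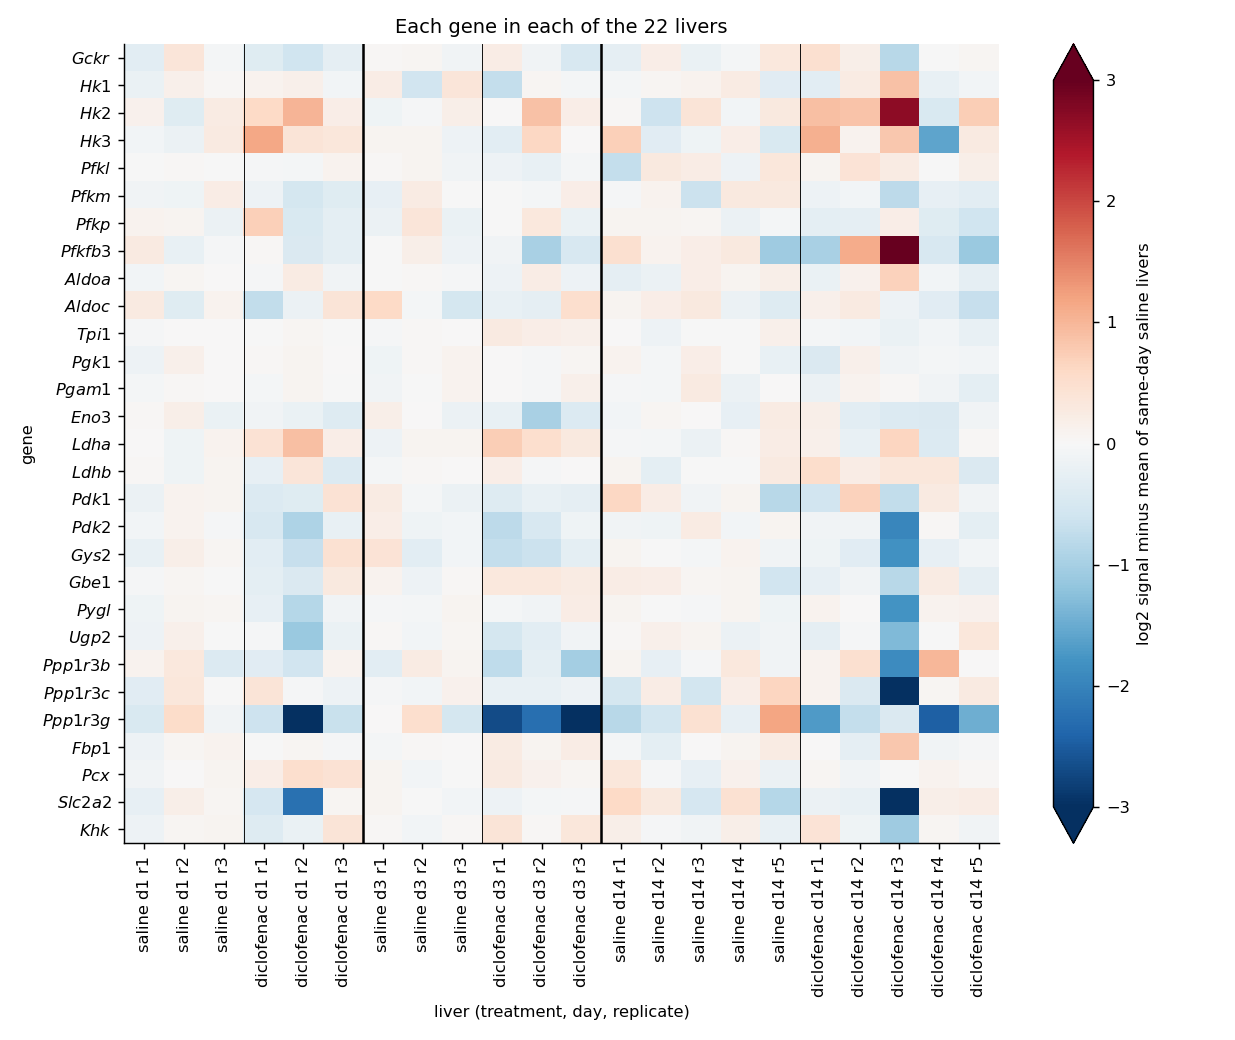
Colour shows the log2 signal minus the mean of the same-day saline livers, clipped at 3 in either direction, for each of the 29 genes (rows, ordered by role) in each of the 22 livers (columns, by day, treatment and replicate). The darkest columns are replicate 3 of the day 14 diclofenac group and replicate 2 of the day 1 diclofenac group, and the Ppp1r3g line is blue in all 11 diclofenac livers.

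Between control livers of days 3 and 1, 0 of 29 members passed the test (0.217% of genes called), 3 did at an unadjusted p (10.4% of genes), and 7 did not overlap (20.9%), 5 higher (8.58%) and 2 lower (12.4%) at day 3. Pgk1, which makes ATP in lower glycolysis, was 11416, 14044 and 12723 at day 1 and 16103, 18113 and 19097 at day 3 (0.48, SE 0.09, adjusted p = 0.0549, limma), and the difference was 0.12 (adjusted p = 0.827, limma) with the mean of all its probe sets. Ppp1r3g was higher at day 3 by 2.15 (SE 0.71, adjusted p = 0.272, limma). Ppp1r3b was higher by 0.64 (adjusted p = 0.343, limma). Control probe sets for 18S RNA differed between days, with log2 means of 12.05, 14.68 and 15.35 in saline livers of days 1, 3 and 14, so day and hybridisation cannot be told apart. None of the 29 genes had an effect of treatment that differed past the test between days 3 and 1 (0 of 29 and 0% of genes, with 0 at an unadjusted p against 5.39%). Between day 14 and the earlier days 0 differed (0.0225% of genes), with Tpi1 and Ldha at an unadjusted p under 0.05 (6.45% of genes).

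Of 59 further genes of these pathways, 48 were tested at days 1 and 3, 43 at day 14 and 49 in the mean effect. None was called at a single day (7, 6 and 6 had an unadjusted p under 0.05 at days 1, 3 and 14), and in the mean 0 rose and 2 fell. G6pc, the catalytic subunit that releases free glucose from liver, was 1957 ± 581 (SD, n = 3), 6924 ± 1928 (SD, n = 3) and 15496 ± 1860 (SD, n = 5) in saline livers of days 1, 3 and 14. In diclofenac livers it was 2048 ± 1083 (SD, n = 3), 2840 ± 1129 (SD, n = 3) and 7614 ± 2683 (SD, n = 5). The groups overlapped at day 1 and did not at days 3 and 14. Its mean effect was -0.82 (SE 0.20, adjusted p = 0.0403, limma), and the day 14 effect alone was -1.10 (adjusted p = 0.119, limma; exact permutation p = 0.00794). Txnip, a thioredoxin-binding protein that limits glucose uptake, had a mean effect of -0.59 (SE 0.13, adjusted p = 0.024, limma), with -0.29, -0.60 and -0.89 at the 3 days. Both calls were lost with a term for replicate number (adjusted p = 0.07 and 0.0748, limma). G6pc was also lost, with an adjusted p of 0.0514 to 0.0973 (limma), without any single one of saline replicates 1, 2 or 3 of day 1, 2 or 3 of day 3 and 1 to 5 of day 14, or of diclofenac replicates 3 of day 1, 1 or 2 of day 3 and 1 of day 14. Txnip was lost, with an adjusted p of 0.0548 to 0.0701 (limma), without saline replicate 3 of day 1 or 2 or 3 of day 3, or diclofenac replicate 2 of day 1 or 1 of day 3. Without replicate 3 of the diclofenac group, G6pc was called at day 14 alone (-0.91, adjusted p = 0.0266, limma). At day 14 the 3′ to 5′ ratio of control probe sets, a measure of RNA integrity, was also higher with diclofenac (log2 0.74 against 0.62, exact permutation p = 0.0238), and its part in these values was not tested.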

How the data were processed

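Liver RNA was hybridised to Affymetrix GeneChip Mouse 430 2.0 arrays, 1 per mouse. The authors imported the scans into GenPlex and applied MAS5 and global median normalization, and the deposited values are linear signal intensities. The trimmed mean, without 2% at either end, was 500.0 on every array, and the medians were 75.2 to 89.9. No detection calls or scan dates were used. The number of arrays limits the precision.

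The log2 of each signal was used with no further scaling. Of 45101 probe sets, 34958 had 1 gene symbol, 932 several and 9211 none, and each gene is represented by its single-symbol probe set of highest mean. Probe sets named x_at, which can bind related transcripts, stand for 5 members (Hk3, Aldoa, Tpi1, Pgk1 and Ugp2). A gene was tested when at least 3 arrays of a model held it above their median signal, which all 29 members passed. Models were fitted in limma 3.58.1 (R 4.3.3; lmFit, eBayes with trend), for the 12 arrays of days 1 and 3, the 10 arrays of day 14, and all 22 arrays for the mean effect and the day 14 minus earlier difference. Tests were two-sided and called at a Benjamini-Hochberg adjusted p under 0.05 over all genes. The procedure was tested on simulated data with independent noise, which held no livers that stood apart over many genes. Tables, exact permutation tests over livers and figures used scipy 1.17.1, numpy 2.4.6 and pandas 2.3.3 in Python 3.11.15.

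The genes, the role, class and marker lists and the tests were chosen with earlier results of these data known. Values per liver are given for members past any test, for those whose groups did not overlap on a day with a log2 difference of at least 0.5 in size (Ppp1r3g, Hk3, Pdk2 and Ldha at day 1, Ppp1r3g, Eno3 and Ldha at day 3, none at day 14) and for Hk1. Those of Hk2, Pfkm, Pfkfb3, Tpi1, Ppp1r3b, Ppp1r3c, Pygl, Gys2, Slc2a2, Pcx and Pgk1 were chosen after their values were seen. Alternatives were other filters, normalizations, probe set rules and array sets, array weights, a replicate term, the methods' t-test, and leaving out each array. Serum, histology and protein measurements were not analysed here.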

Additional observations from a re-analysis of the deposited data

Results flagged for a closer look

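In 58 groups of 5 livers (29 genes, both treatments of day 14), the gap between an extreme liver and its nearest neighbour, as a share of the group's range, was above Dixon's 95% critical value in 8. Chance gives about 1 such group in 20. Of the 8, 6 were replicate 3 of the diclofenac group, 5 times the lowest and 1 time the highest. By the same measure that liver was past the critical value for 20.7% of the 29 genes and for 14.1% of all 11884 genes tested at day 14. Slc2a2 was 387 there (6337 to 8637 in the other 4 livers), Ppp1r3c 258 (5357 to 8622) and Pygl 3485 (12208 to 13207). Gys2 was 1346 (3740 to 4458) and Pdk2 227 (725 to 901), and Fbp1 was the highest at 91867 (43476 to 52741). The other 2 were the lowest values of replicate 5 of the saline group, with Pfkfb3 at 84.6 (193 to 247 in the other 4) and Gbe1 at 1218 (1879 to 2100). In that diclofenac liver the summed leukocyte markers were 6260, against 1734 to 1987 in the other 4, and the summed macrophage markers 32459, against 7375 to 10664. Their part in these values was not tested.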

How the results depend on the processing

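Among 673 values of named genes under alternatives other than left-out livers, 650 kept direction and side of the threshold. Of the rest, 5 turned, 2 lost the threshold and 16 passed it. With a liver left out, 13 of 795 values turned. Those that crossed the threshold were not counted there, and the G6pc and Txnip calls were lost without several single livers. The fall of Ppp1r3g in the mean effect held in each alternative run (adjusted p 0.00216 to 0.0358, limma) and without each liver (log2 difference -2.06 to -1.56, adjusted p 0.00351 to 0.0325, limma). The cause of the following shifts was not tested. At day 3, 1 member, Ppp1r3g, was called with the median signal added, with each day on its own arrays, with array weights and by the methods' t-test, and 0 to 2 without single livers (2, Ldha and Ppp1r3g, without replicate 2 of the day 1 diclofenac group). At day 14 the methods' t-test called 1. The mean effect called 1 to 2 without single livers (2, Pdk2 and Ppp1r3g, without replicate 3 of day 14). Saline day 3 against day 1 called 1 with quantile normalization, every probe set on its own or array weights (Pgk1) and with the median added (Ppp1r3g), and 0 to 2 without single livers. At day 14 the log2 difference of Ldha was -0.08 with quantile normalization, and with array weights Ldha was -0.12, Hk3 -0.23, Hk1 -0.07 and Pfkfb3 -0.22. Without single livers, Hk1 was -0.04 to 0.14 and G6pc -0.43 to 0.39 at day 1, Hk3 -0.15 to 0.31 at day 3, Hk3 -0.10 to 0.56, Ldha -0.11 to 0.15, Hk1 -0.09 to 0.21 and Pfkfb3 -0.36 to 0.75 at day 14, and Hk1 -0.12 to 0.06 in the mean.

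Counts over all genes moved as well. Many more genes than members were tested, so the sizes of these shifts cannot be compared with those of members. Day 3 called 26 genes, and 145 on its own arrays, 156 with array weights, 178 without replicate 2 of the day 1 diclofenac group, 1 with all 22 arrays in one model and 6 with the replicate block. Day 14 called 0, and 109 with array weights, 133 with all 22 arrays and 123 without replicate 3. The mean effect called 224, and 484 with array weights and 108 to 536 without single livers. Saline day 3 against day 1 called 28, and 224 with array weights. Same-numbered saline and diclofenac livers correlated at -0.11 to 0.11 over genes, 1 of 11 pairs over 0.1, and 5 of 11 best with their own number. These values cannot decide whether replicate numbers paired the animals. With the replicate block the members called stayed at 0 at each day and 1 in the mean (Ppp1r3g -1.89, adjusted p = 0.0358, limma), while the mean effects of G6pc and Txnip lost the call (adjusted p = 0.07 and 0.0748). The block could not be fitted for the saline comparison, where replicate numbers lie within days. Leaving out both livers that stood apart was chosen after seeing the data and left 1 member called.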
